A study of Homo sapiens with 6 samples.

Results

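Heparan sulfate and chondroitin sulfate are long, sulfated sugar chains that cells attach to core proteins of the surface and matrix. The genes described here were all those measured whose symbol belongs to the families that start, polymerise or sulfate these chains (XYLT, B3GAT, EXT, EXTL, NDST, HS2ST, HS3ST, HS6ST, CSGALNACT, CHSY and CHST), that remove sulfate groups outside the cell (SULF), or that encode the glypican and syndecan core proteins. They were picked by symbol, through the platform annotation, and that choice was made with earlier results of these data known. A gene with several probe sets took the brightest one over the 6 arrays. This gave 54 of the 18417 genes measured. Of the 56 family names listed, NDST2 and SDC4 had no probe set of their own in that annotation and were not analysed here.

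The arrays held RNA of H358, an established human non-small cell lung cancer line. The groups were 3 cultures of cells stably expressing TwistER and 3 of cells stably expressing GFP, a fluorescent protein, and all 6 were kept in 100 nM 4-hydroxytamoxifen (4OHT) for 12 days. In TwistER constructs the Twist transcription factor is fused to the hormone-binding region of the estrogen receptor, and 4OHT switches it on. The labels call the TwistER samples after, and the GFP samples before, epithelial-mesenchymal transition (EMT), in which epithelial cells lose their contacts and become motile. The labels do not say whether either line is a clone or a pool, nor which promoter drives the insert. TwistER cells without 4OHT were not analysed here, and switching on the factor cannot be told apart from anything else that separates the lines. Titles name the samples biological replicates without saying how they were separated, so each p-value speaks for the spread among these cultures, which may be technical.

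Each chain is built on a short linkage sugar begun by a xylosyltransferase. The first sugar added after the linkage decides between heparan sulfate, extended by EXT enzymes, and chondroitin sulfate, extended by CHSY enzymes. Sulfotransferases then place sulfate at set positions, and the resulting patterns bind growth factors, chemokines and matrix proteins. Glypicans are held in the membrane by a lipid anchor, and syndecans span it and reach into the cytoplasm. In epithelia these proteoglycans act as co-receptors for fibroblast growth factor, Wnt and other ligands.

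Values are log2 expression, made by the authors with RMA, and every difference is TwistER minus GFP. A gene is said to have risen or fallen where limma's adjusted p over all 18417 genes was under 0.05. GFP replicate 1 was the array least like its group, with r = 0.982 over genes to each of the other GFP arrays, where those had r = 0.996 to each other. In 6 members GFP replicate 1 read more than 0.5 below both other GFP arrays, and in 0 it read as far above them, while over all genes 1465 lay below and 1051 above in this way. The counts of risen and fallen genes, and the calls, that change when this array is left out are therefore also given without it. KRT18, KRT7, PTPRC, SLC35D1, SLC35B2 and UXS1 are named for such a change after their values were seen. PAPSS1 was likewise named, beside PAPSS2, after its values were seen. With 3 arrays per group, precision is limited by their number.

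Among 9 measured lung epithelial markers, 5 fell (CDH1, EPCAM, KRT19, CLDN4 and KRT8) and 0 rose, and KRT8 lost its call without GFP replicate 2 or 3 or TwistER replicate 2. With GFP replicate 1 left out 7 fell, KRT18 and KRT7 too (-1.40 and -0.41, limma adjusted p = 0.00192 and 0.0352). The 9 markers' summed linear signal was 1627 to 1666 in the TwistER arrays and 7377 to 7824 in the GFP arrays. The lung lineage markers NKX2-1 and SFTPB read 4.43 to 4.63 in the TwistER arrays and 4.33 to 4.60 in the GFP arrays, close to the lower quartile of all genes (4.21). Of 10 fibroblast markers COL3A1, PDGFRA and COL1A1 rose and LUM fell (of these the COL1A1 call was lost without any one array other than GFP replicate 1), with a summed signal of 402 to 422 in the TwistER arrays and 360 to 447 in the GFP arrays, and DCN read 2.22 to 2.48 in the TwistER arrays and 2.27 to 2.48 in the GFP arrays. Of 10 endothelial markers KDR and PECAM1 rose and 0 fell (the PECAM1 call was lost without GFP replicate 2 or TwistER replicate 1 or 3), with a summed signal of 273 to 285 in the TwistER arrays and 190 to 194 in the GFP arrays. The median difference of the endothelial markers was only 0.06. KDR had the largest, and read 6.62 to 6.81 in the TwistER arrays and 4.79 to 5.06 in the GFP arrays. Of 9 leukocyte markers 0 rose and 0 fell in limma, and 1 had an unadjusted p under 0.05. PTPRC rose when GFP replicate 1 was left out (0.48, limma adjusted p = 0.0407). The leukocyte markers had a summed signal of 220 to 267 in the TwistER arrays and 217 to 226 in the GFP arrays. Of all genes 4.72% rose and 4.11% fell with all arrays, and 6.97% and 8.09% without GFP replicate 1. No marker can read 0 on this scale, and the part of such cells in the results below was not tested.

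Of the 7 members that changed (given below), the promoters of GPC4, NDST1, GPC6 and HS6ST2 are shown, and those of SDC2, SULF1 and EXTL3 are not. They are shown because the Twist factor binds the E-box, a motif of 6 bases whose letters are CANNTG on either strand. Each runs from 250 bases before to 50 bases after the gene's start, 5′ to 3′ on the gene's strand, from RefSeq (build GRCh38.p14), with the E-box letters in capitals. The windows are chrX:133415440-133415739 (minus strand) for GPC4, chr5:150497529-150497828 (plus strand) for NDST1, chr13:93226557-93226856 (plus strand) for GPC6 and chrX:132961321-132961620 (minus strand) for HS6ST2.
GPC4: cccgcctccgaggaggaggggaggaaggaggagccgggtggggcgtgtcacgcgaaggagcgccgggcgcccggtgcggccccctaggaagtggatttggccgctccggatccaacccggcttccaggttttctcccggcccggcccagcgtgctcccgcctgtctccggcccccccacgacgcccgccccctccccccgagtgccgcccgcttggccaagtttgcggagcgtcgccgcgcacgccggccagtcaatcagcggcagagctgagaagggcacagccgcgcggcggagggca
NDST1: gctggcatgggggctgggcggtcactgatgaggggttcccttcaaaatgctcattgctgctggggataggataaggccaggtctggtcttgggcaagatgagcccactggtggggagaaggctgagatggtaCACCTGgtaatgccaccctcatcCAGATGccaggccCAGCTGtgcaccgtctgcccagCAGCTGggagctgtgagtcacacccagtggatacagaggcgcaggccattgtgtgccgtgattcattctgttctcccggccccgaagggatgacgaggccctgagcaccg
GPC6: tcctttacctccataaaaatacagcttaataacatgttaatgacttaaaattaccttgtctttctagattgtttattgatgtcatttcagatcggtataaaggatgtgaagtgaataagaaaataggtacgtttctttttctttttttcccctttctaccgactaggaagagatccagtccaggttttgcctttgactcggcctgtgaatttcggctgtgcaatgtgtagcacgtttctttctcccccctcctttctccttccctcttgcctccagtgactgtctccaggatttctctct
HS6ST2: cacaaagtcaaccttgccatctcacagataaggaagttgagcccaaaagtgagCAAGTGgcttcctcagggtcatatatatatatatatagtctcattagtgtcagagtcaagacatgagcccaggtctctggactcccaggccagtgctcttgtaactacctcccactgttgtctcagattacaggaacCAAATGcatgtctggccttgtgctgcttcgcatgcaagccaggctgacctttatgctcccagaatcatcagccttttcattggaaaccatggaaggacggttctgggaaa

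The NDST1 window holds 4 E-boxes, which begin 118, 95, 82 and 60 bases before the start, and the last 2 share the letters CAGCTG. The HS6ST2 window holds 2, which begin 197 and 60 bases before the start. The GPC4 and GPC6 windows, which are 74.7% and 40.0% G and C, hold 0, which says only that these letters are not in these 300 bases. Of the 57 promoter windows found for 46 of the 54 members, 32 (56.1%) hold at least 1 CANNTG, and so do 68.7% of all 35116 windows in the table. These matches describe letters and show no binding.

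Of the 54 members 5 rose, 2 fell and 47 did not pass. The rises were in the core proteins SDC2, GPC4 and GPC6, the N-sulfotransferase NDST1 and the sulfatase SULF1, and the falls in the chain-starting enzyme EXTL3 and the 6-O-sulfotransferase HS6ST2. The members that rose made up 9.26% of the families, where 4.72% of all genes rose, and those that fell 3.70%, where 4.11% of all genes fell. In either direction 13.0% of the members and 8.83% of all genes changed, a difference of few genes. In cultures measured in bulk, more transcript per cell and more cells that carry it cannot be told apart. The members' median difference was 0.08, and that of all genes 0.01. Without GFP replicate 1 these were 0.03 and -0.002. The TwistER and GFP arrays did not overlap in 20 members (37.0%), 15 higher and 5 lower in TwistER, where 28.4% of all genes did not overlap. The overlap was not counted without GFP replicate 1.

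**Figure D1:**
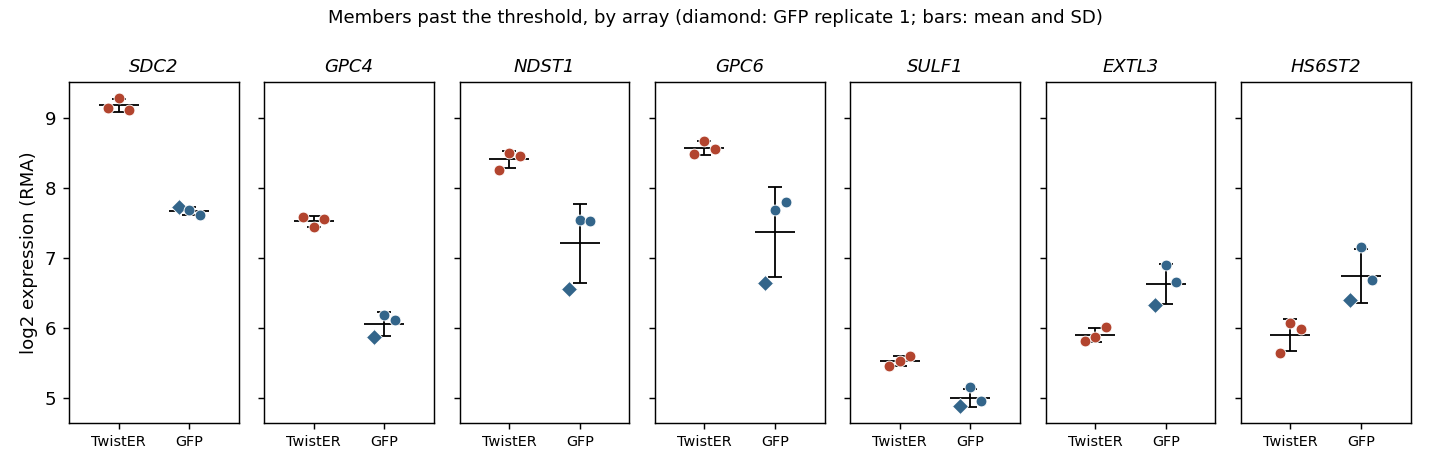
Log2 expression (RMA, vertical axis) of the 7 members past the threshold in each TwistER array (red, left) and each GFP array (blue, right), with the group mean and SD as bars. The groups do not overlap in any of the 7 panels, and GFP replicate 1 (diamond) lies far below the other GFP arrays in NDST1 and GPC6.

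The syndecans showed one large rise. SDC2, the syndecan best known from mesenchymal cells, read 9.13, 9.28 and 9.10 in the TwistER arrays and 7.73, 7.68 and 7.61 in the GFP arrays. The lowest TwistER array was more than 1 unit above the highest GFP array. The 2.83-fold rise (log2 difference 1.50 ± 0.11 SE, 3 arrays per group, limma adjusted p = 8.19e-05) had the smallest adjusted p of the 54 members. It remained past the threshold without any one array, with differences of 1.44 to 1.53.

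SDC1, the main syndecan of epithelia, read 6.43, 6.69 and 6.39 in the TwistER arrays and 6.37, 6.69 and 6.70 in the GFP arrays. These groups overlapped, and the difference of -0.08 (95% interval -0.40 to 0.24) did not pass. SDC3, a syndecan of the nervous system and muscle, read 5.82, 5.92 and 5.90 in the TwistER arrays and 5.38, 5.52 and 5.58 in the GFP arrays. Its groups were separate, but the difference of 0.39 ± 0.11 did not pass in limma (adjusted p = 0.0640, or 0.0501 with GFP replicate 1 left out). It passed after a second quantile normalization, after cyclic loess, with a filter on dim genes and with array weights.

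Of the 6 glypicans 2 rose, 0 fell and 4 did not pass, where 8.83% of all genes changed. GPC4, a regulator of Wnt, FGF and BMP signalling, read 7.58, 7.44 and 7.55 in the TwistER arrays and 5.87, 6.19 and 6.12 in the GFP arrays. All TwistER arrays lay above all GFP arrays, with a 2.76-fold rise (1.46 ± 0.12, limma adjusted p = 0.000194) that remained without any one array, at 1.37 to 1.53.

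GPC6, another member of the branch of glypicans that holds GPC4, read 8.48, 8.67 and 8.55 in the TwistER arrays and 6.64, 7.68 and 7.80 in the GFP arrays. GFP replicate 1 was the low one, with a deviation of -1.10 from the mean of the other GFP arrays. The rise was 2.29-fold (1.19 ± 0.27, limma adjusted p = 0.0307), and 1.77-fold without GFP replicate 1 (0.83 ± 0.10, limma adjusted p = 0.00201). The call ended when TwistER replicate 1, 2 or 3 was left out (limma adjusted p up to 0.122).

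The other glypicans did not pass. GPC1, which is widely expressed in epithelial tumours, read 6.16 to 6.31 in the TwistER arrays and 6.15 to 6.49 in the GFP arrays, with a difference of -0.12 (95% interval -0.41 to 0.17). GPC2, a glypican of the developing nervous system, differed by 0.01 (-0.24 to 0.27). GPC3, the gene of Simpson-Golabi-Behmel syndrome, and GPC5 read 3.27 to 3.85 and 3.33 to 3.48 in the TwistER arrays, and 3.28 to 3.81 and 2.93 to 3.48 in the GFP arrays. Both lay in the lower quartile of the genes (means under 4.21), where background light compresses differences.

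Some family genes are neighbours in the genome. In RefSeq's gene order GPC4 lies next to GPC3 on the X chromosome, with 0 protein-coding genes between them, and HS6ST2 lies on the other side of GPC4 with 2 between. There GPC4 rose, GPC3 had a difference of 0.01 ± 0.19 and HS6ST2 fell. On chromosome 13, GPC6 rose, and its neighbour GPC5 had a difference of 0.19 ± 0.15 (adjusted p = 0.550). On chromosome 17, HS3ST3A1 and HS3ST3B1, with 2 genes between, differed by -0.34 ± 0.12 and -0.24 ± 0.17, and neither passed (limma adjusted p = 0.133 and 0.497). Without GFP replicate 1 HS3ST3B1 differed by -0.09.

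**Figure D2:**
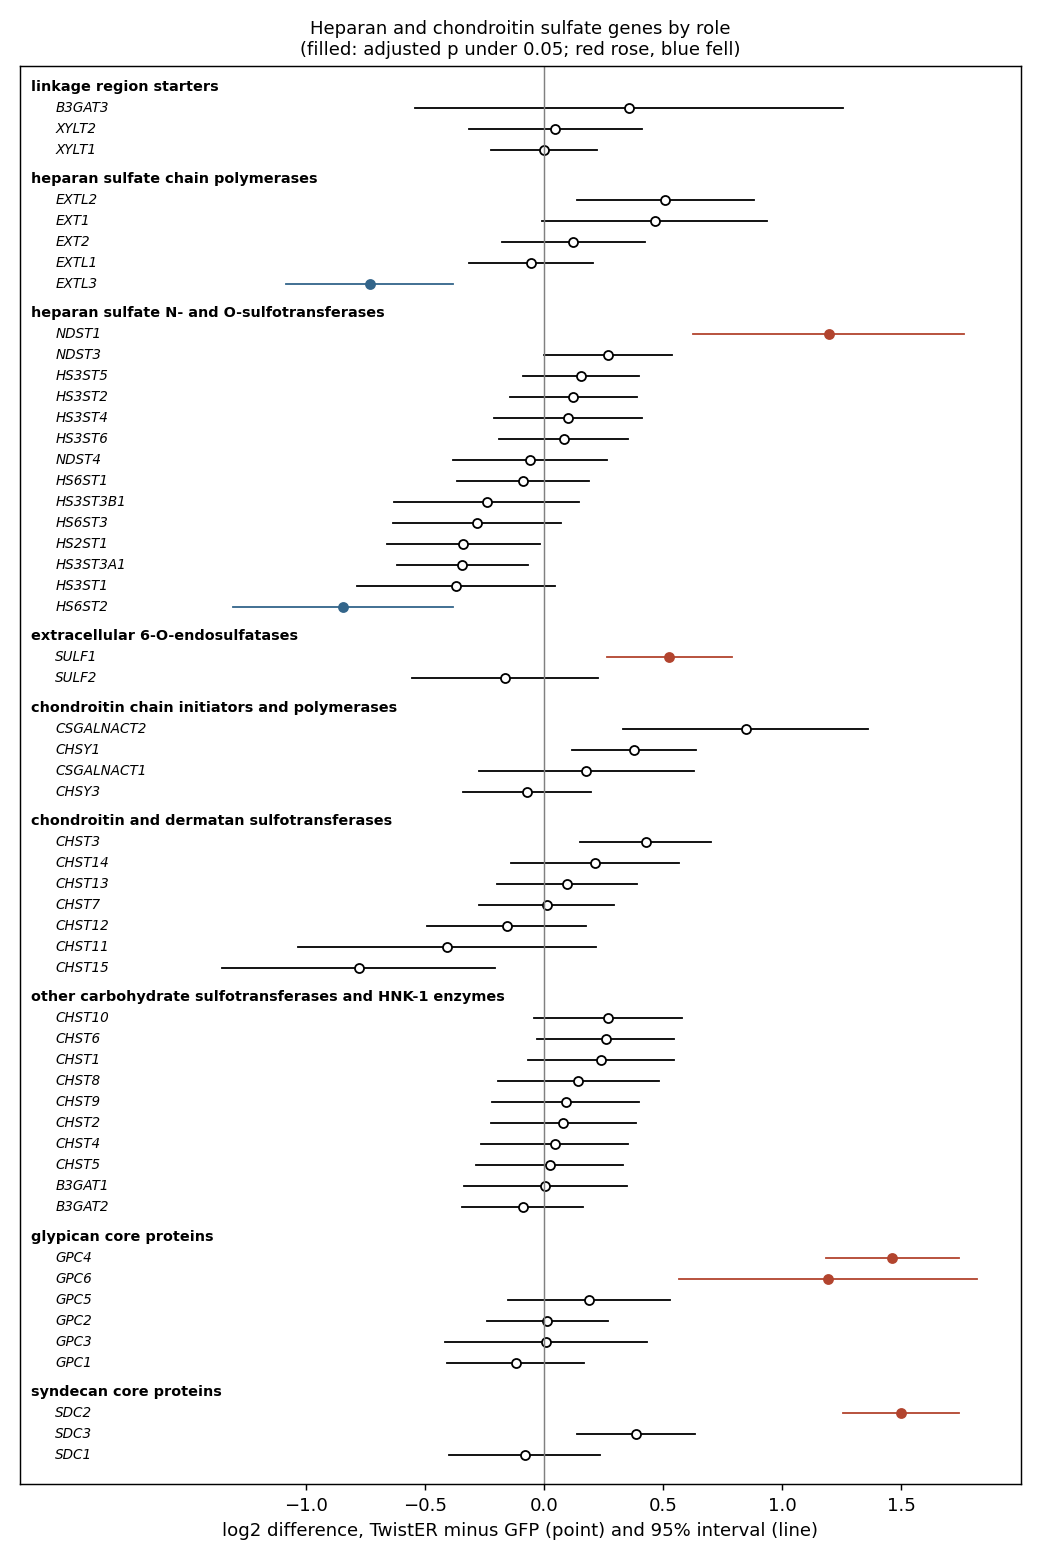
Log2 difference, TwistER minus GFP (horizontal axis), with limma's 95% interval for each of the 54 members, grouped by role. Filled points passed an adjusted p under 0.05 (5 rose, red, and 2 fell, blue), and open points did not.

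The enzymes of the linkage region did not pass. XYLT1 and XYLT2, which put the first xylose on the core protein, had differences of 0.00 (95% interval -0.22 to 0.22) and 0.05 (-0.31 to 0.41). B3GAT3, which adds the glucuronic acid that completes the linkage, read 5.28, 5.72 and 5.42 in the TwistER arrays and 4.05, 5.54 and 5.76 in the GFP arrays. GFP replicate 1 deviated by -1.60 from the mean of the other GFP arrays. The difference of 0.36 ± 0.39 turned to -0.17 ± 0.15 without that array, and passed in neither case (limma adjusted p = 0.687 and 0.523).

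Of the 5 EXT and EXTL genes, which lengthen heparan sulfate, 1 fell and 0 rose, where 8.83% of all genes changed. EXTL3 adds the first N-acetylglucosamine to the linkage and so commits a chain to heparan sulfate. It read 5.82, 5.88 and 6.01 in the TwistER arrays and 6.34, 6.90 and 6.66 in the GFP arrays, and every TwistER array was below every GFP array. The 1.66-fold fall (-0.73 ± 0.15, limma adjusted p = 0.0210) was 1.84-fold without GFP replicate 1 (-0.88 ± 0.11, limma adjusted p = 0.00256). Leaving out GFP replicate 2 or 3 or any TwistER array ended the call, and the adjusted p then reached 0.0913.

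EXT1 and EXT2 form the complex that polymerises the chain. EXT1 read 11.09, 11.14 and 11.12 in the TwistER arrays and 10.12, 10.95 and 10.88 in the GFP arrays. The groups were separate, narrowly so for GFP replicates 2 and 3, and the difference of 0.46 ± 0.21 (limma adjusted p = 0.241) was 0.20 ± 0.09 without GFP replicate 1 (adjusted p = 0.187). EXT2 had a difference of 0.12 ± 0.13 (adjusted p = 0.676). EXTL2, a transferase that can cap the linkage and stop elongation, read 7.29, 7.42 and 7.09 in the TwistER arrays and 7.06, 6.72 and 6.49 in the GFP arrays. Its groups were separate by less than 0.1, its difference of 0.51 ± 0.16 missed the threshold in limma (adjusted p = 0.100), and it passed at 0.66 ± 0.13 when GFP replicate 1 was left out (adjusted p = 0.0147). EXTL1 differed by -0.05 (95% interval -0.32 to 0.21).

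Of the 14 heparan sulfate sulfotransferases 1 rose and 1 fell, where 8.83% of all genes changed, and the other 12 did not pass. Their median difference was -0.07. NDST1 replaces acetyl groups of the chain by sulfate, the step on which later sulfation depends. It read 8.26, 8.50 and 8.45 in the TwistER arrays and 6.56, 7.53 and 7.53 in the GFP arrays. All TwistER arrays were above all GFP arrays, and GFP replicate 1 deviated by -0.97 from the mean of the other GFP arrays. The rise was 2.29-fold (1.20 ± 0.25, limma adjusted p = 0.0200), and 1.83-fold without GFP replicate 1 (0.87 ± 0.10, limma adjusted p = 0.00193). The call ended when TwistER replicate 1, 2 or 3 was left out (limma adjusted p up to 0.0895). NDST3 and NDST4, related enzymes of narrow expression, differed by 0.27 ± 0.12 and -0.06 ± 0.14 without passing (adjusted p = 0.233 and 0.872), and NDST4 was in the lower quartile of the genes.

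HS6ST2, which sulfates the 6 position of glucosamine, read 5.65, 6.08 and 5.98 in the TwistER arrays and 6.40, 7.16 and 6.68 in the GFP arrays. The groups did not overlap. The 1.79-fold fall (-0.84 ± 0.20, limma adjusted p = 0.0361) was 2.02-fold without GFP replicate 1 (-1.02 ± 0.18, limma adjusted p = 0.00975). Leaving out GFP replicate 2 or 3 or any TwistER array ended this call too, and the adjusted p reached 0.138. The related HS6ST1 differed by -0.09 (95% interval -0.37 to 0.19) and HS6ST3 by -0.28 (-0.63 to 0.07), or -0.18 without GFP replicate 1, and HS6ST3 had a mean in the lower quartile.

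HS2ST1, the 2-O-sulfotransferase of heparan sulfate, read 8.79, 8.89 and 8.84 in the TwistER arrays and 9.46, 9.11 and 8.97 in the GFP arrays. It was lower in all TwistER arrays, by -0.34 ± 0.14, and did not pass in limma (adjusted p = 0.206). GFP replicate 1 read 0.417 above the mean of the other GFP arrays, and without it the difference was -0.20 (adjusted p = 0.225). The 7 HS3ST genes encode the 3-O-sulfotransferases, which make rare binding sites such as that for antithrombin (HS3ST1). In limma 0 of them rose and 0 fell, where 8.83% of all genes changed, and only HS3ST3A1 had an unadjusted p under 0.05 (0.0206). Their differences ran from -0.37 ± 0.18 (HS3ST1) to 0.16 ± 0.11 (HS3ST5).

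The SULF enzymes work outside the cell and strip 6-O-sulfate from finished chains. SULF1 read 5.46, 5.53 and 5.61 in the TwistER arrays and 4.90, 5.16 and 4.97 in the GFP arrays. The groups were separate, and the rise was 1.44-fold (0.53 ± 0.11, limma adjusted p = 0.0248). The call ended when GFP replicate 3 or TwistER replicate 1, 2 or 3 was left out (limma adjusted p up to 0.103). SULF2 read 4.19, 3.82 and 4.52 in the TwistER arrays and 4.40, 4.27 and 4.35 in the GFP arrays, with a difference of -0.16 ± 0.17 (adjusted p = 0.674). The arrays measured transcripts and no sulfate.

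On the chondroitin side 0 of the 11 genes passed with all arrays in limma, 4 had an unadjusted p under 0.05, and 4 passed without GFP replicate 1. Over all 18417 genes 8.83% passed with all arrays, 3969 had an unadjusted p under 0.05, and 15.1% passed without GFP replicate 1. The 11 were not tested against these shares. CSGALNACT2 adds the first N-acetylgalactosamine and so commits a chain to chondroitin sulfate. It read 7.40, 7.61 and 7.11 in the TwistER arrays and 6.92, 6.61 and 6.05 in the GFP arrays. The groups were separate, with a difference of 0.85 ± 0.22 that missed the threshold in limma (adjusted p = 0.0542) and was 1.04 ± 0.20 without GFP replicate 1 (adjusted p = 0.0141). Its paralog CSGALNACT1 was dim in both lines and differed by 0.18 ± 0.20 (adjusted p = 0.687).

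CHSY1, a chondroitin polymerase, read 8.23, 7.99 and 7.99 in the TwistER arrays and 7.67, 7.77 and 7.64 in the GFP arrays. It was higher in all TwistER arrays, by 0.38 ± 0.11, without passing in limma (adjusted p = 0.0836). It passed after a second quantile normalization (adjusted p = 0.0480), after cyclic loess (0.0438) and with array weights (0.0321), and over all alternatives its adjusted p reached 0.264. The related CHSY3 differed by -0.07 (95% interval -0.34 to 0.20).

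The chondroitin sulfotransferases included values of both signs. CHST11, which sulfates the 4 position, read 6.30, 6.57 and 6.48 in the TwistER arrays and 6.13, 7.27 and 7.17 in the GFP arrays. GFP replicate 1 lay below all TwistER arrays and the other GFP arrays above them, so the groups overlapped. The difference of -0.41 ± 0.27 did not pass (limma adjusted p = 0.469), but it passed at -0.77 ± 0.11 when GFP replicate 1 was left out (limma adjusted p = 0.00402).

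CHST15, which adds a second sulfate to chondroitin already sulfated at the 4 position, read 5.04, 5.61 and 5.68 in the TwistER arrays and 5.69, 6.44 and 6.53 in the GFP arrays. The highest TwistER array was just under the lowest GFP array. Its difference was -0.78 ± 0.25 (limma adjusted p = 0.104), and -1.04 ± 0.19 without GFP replicate 1 (adjusted p = 0.0118). CHST3, which sulfates the 6 position, read 5.26, 5.17 and 4.997 in the TwistER arrays and 4.85, 4.67 and 4.62 in the GFP arrays. Its groups were separate, with a difference of 0.43 ± 0.12 (limma adjusted p = 0.0660) that was 0.50 ± 0.11 without GFP replicate 1 (adjusted p = 0.0219). CHST7, CHST12, CHST13 and CHST14, the last a dermatan 4-O-sulfotransferase, had differences between -0.16 and 0.21, and none passed with or without that array.

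The remaining CHST and B3GAT genes act on other sugars, such as keratan sulfate (CHST1 and CHST6), selectin ligands (CHST2 and CHST4) and the HNK-1 epitope of nerve cells (B3GAT1, B3GAT2 and CHST10). In limma 0 of these 10 rose and 0 fell, where 8.83% of all genes changed. Of the 10, 0 had an unadjusted p under 0.05, where 3969 of all 18417 genes did. Their differences ran from -0.09 ± 0.11 (B3GAT2) to 0.27 ± 0.14 (CHST10). Their 95% intervals reached from -0.34 to 0.58 at most.

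**Figure D3:**
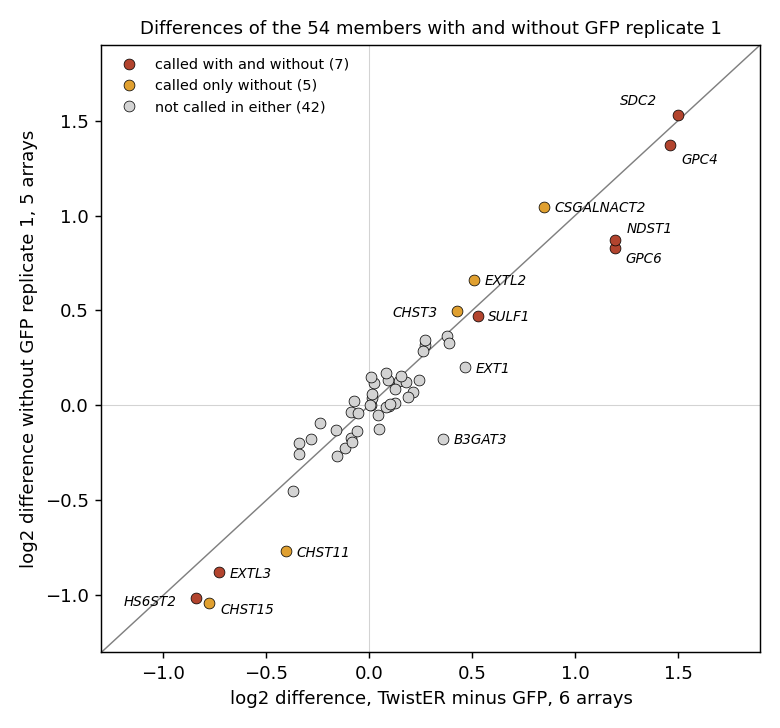
Log2 difference of each of the 54 members, TwistER minus GFP, from all 6 arrays (horizontal axis) and from the 5 arrays without GFP replicate 1 (vertical axis), with the line of equal values. The 7 members called with all arrays (red) were also called without it, and 5 more were called only without it (orange). B3GAT3, XYLT2, CHST2, CHST4, CHST13 and CHSY3 changed sign, and none of these was called in either case.

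Without GFP replicate 1, 8 members rose (14.8%, where 6.97% of all genes rose) and 4 fell (7.41%, where 8.09% of all genes fell). Together these were 22.2% of the members, where 15.1% of all genes were called. The additional rises were CSGALNACT2, CHST3 and EXTL2, and the additional falls CHST11 and CHST15. The 6 members in which that array read low were NDST1, GPC6, EXT1, B3GAT3, CHST11 and CHST15, with deviations of -1.60 to -0.79 from the mean of the other GFP arrays. In the first 4 this made the difference more positive, and in the CHST genes less negative.

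Genes of the same pathway outside these families included further rises and falls, given by list. Over all genes 4.72% rose and 4.11% fell, or 6.97% and 8.09% without GFP replicate 1. No list was tested against these shares. Of 19 linkage, precursor and partner enzymes 3 rose and 0 fell, and their median difference was 0.17. With GFP replicate 1 left out 4 rose and 2 fell. The sugar nucleotide transporter SLC35D1 was then added to the rises (0.50, limma adjusted p = 0.0343), and the PAPS transporter SLC35B2 and the UDP-xylose synthase UXS1 were the falls (-0.42 and -0.45, limma adjusted p = 0.0199 and 0.0222). PAPSS2 makes PAPS, the sulfate donor of all these sulfotransferases. It read 8.09, 8.04 and 8.26 in the TwistER arrays and 6.77, 6.97 and 7.08 in the GFP arrays, a rise of 2.28-fold (1.19 ± 0.12, limma adjusted p = 0.000619). The groups stood almost 1 unit apart. PAPSS1, the other PAPS synthase, had a higher mean over all arrays (8.08 against 7.54). It differed by 0.16 ± 0.12 and did not pass (limma adjusted p = 0.54). DSEL, an epimerase that turns chondroitin into dermatan sulfate, read 10.48, 10.45 and 10.38 in the TwistER arrays and 9.84, 9.54 and 9.41 in the GFP arrays, a rise of 1.79-fold (0.84 ± 0.13, adjusted p = 0.00504). UGP2, which makes UDP-glucose, the source of the glucuronic acid donor, rose 1.48-fold (0.57 ± 0.13, adjusted p = 0.0321), and lost its call without GFP replicate 2 or 3 or any TwistER array, where the adjusted p reached 0.131. PXYLP1, the phosphatase that removes phosphate from the linkage xylose, was 0.51 ± 0.17 higher and did not pass (adjusted p = 0.115), and was 0.32 higher with GFP replicate 1 left out (adjusted p = 0.0959). PXYLP1 was dim, with means of 3.94 in the TwistER arrays and 3.43 in the GFP arrays, both in the lower quartile of the genes.

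Of 13 degradation genes 1 rose and 1 fell, where 8.83% of all genes changed, and the median difference was 0.13. HGSNAT, which acetylates heparan sulfate in the lysosome, rose 1.74-fold (0.80 ± 0.14, limma adjusted p = 0.00950), and missed the threshold without TwistER replicate 2 (adjusted p = 0.0559). IDS, the sulfatase missing in Hunter syndrome, fell 1.50-fold (-0.58 ± 0.13, limma adjusted p = 0.0280), and lost its call without GFP replicate 2 or 3 or any TwistER array (adjusted p up to 0.116). ARSB, a lysosomal sulfatase of chondroitin and dermatan sulfate, and HPSE2, a relative of heparanase without its activity, differed by 0.43 ± 0.17 and -0.43 ± 0.12 and did not pass (adjusted p = 0.171 and 0.0675). With GFP replicate 1 left out HPSE2 passed at -0.46 (limma adjusted p = 0.0390), so that 1 gene rose and 2 fell, and ARSB differed by 0.24 (adjusted p = 0.123). HPSE2 was dim, with means of 3.07 in the TwistER arrays and 3.50 in the GFP arrays, both in the lower quartile of the genes.

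Of 19 other core proteins and part-time proteoglycans 3 rose and 0 fell, where 8.83% of all genes changed. The median difference was 0.13. SPOCK3, a secreted testican, read 5.17, 5.61 and 5.30 in the TwistER arrays and 4.37, 4.40 and 4.14 in the GFP arrays, a rise of 2.08-fold (1.06 ± 0.14, limma adjusted p = 0.00258). NRP1, a co-receptor for VEGF and semaphorins that can carry a sugar chain, rose 1.88-fold (0.91 ± 0.16, adjusted p = 0.00893). The large chondroitin sulfate proteoglycan VCAN rose 1.53-fold (0.61 ± 0.11, adjusted p = 0.00920), and missed the threshold without TwistER replicate 2 (adjusted p = 0.0574). AGRN, a heparan sulfate proteoglycan of basement membranes, did not pass, with a difference of -0.34 ± 0.15 (adjusted p = 0.245). With GFP replicate 1 left out it fell, by -0.49 (limma adjusted p = 0.0212), so that 3 rose and 1 fell.

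Of 19 heparin-binding ligands and their carriers 1 rose and 1 fell, where 8.83% of all genes changed. The median difference was 0.07. The matricellular protein CCN1, which binds heparan sulfate, rose 1.80-fold (0.85 ± 0.12, limma adjusted p = 0.00334). FGFBP1, which releases fibroblast growth factors from heparan sulfate in the matrix, averaged 5.74 ± 0.31 in the TwistER arrays and 9.16 ± 0.63 in the GFP arrays (SD, n = 3 each), a 10.7-fold fall (-3.42 ± 0.30 SE, limma adjusted p = 0.000235). PDGFA and BMP4 differed by -0.70 ± 0.32 and -0.43 ± 0.26 and did not pass (adjusted p = 0.245 and 0.404). With GFP replicate 1 left out they passed, at -1.10 and -0.77 (limma adjusted p = 0.00542 and 0.00273), and 1 rose and 3 fell in this list.

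**Figure D4:**
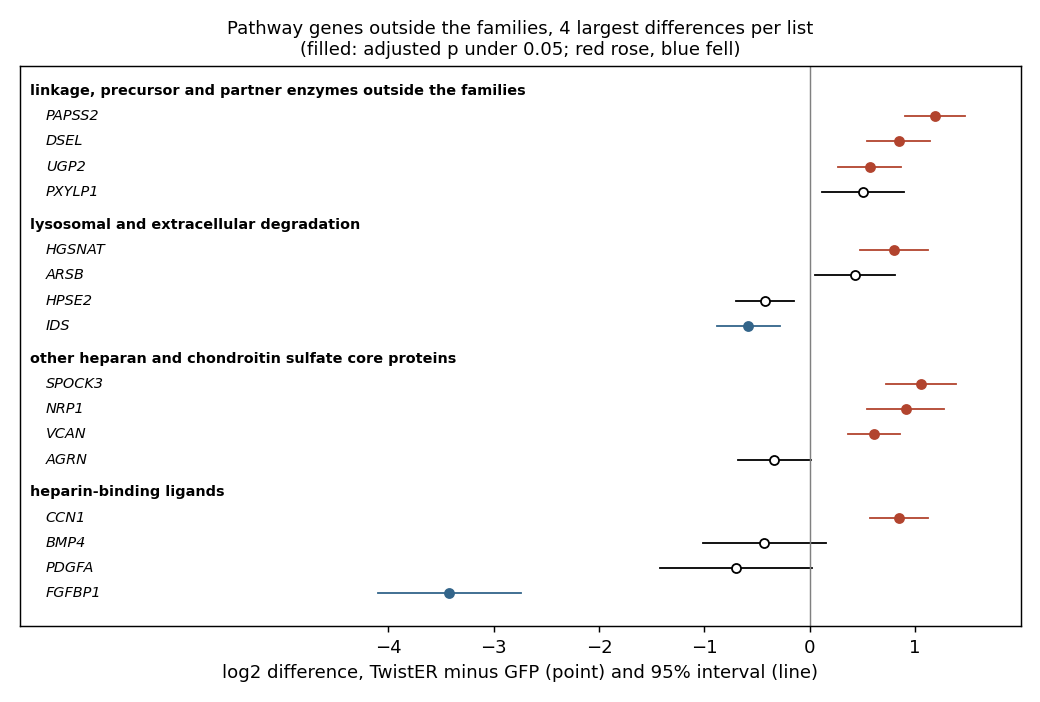
Log2 difference, TwistER minus GFP (horizontal axis), with limma's 95% interval for the 4 genes with the largest differences in each list of pathway genes outside the families. Filled points passed an adjusted p under 0.05, and FGFBP1 lies far below the other genes, at -3.42.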

How the data were processed

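The labels' protocols describe biotin-labelled RNA of 6 cultures on an Affymetrix array. The authors deposited log2 expression values per probe set, and the submitters' processing notes name RMA. Its version, settings and filters are unknown here (not given in the sources used here). The method makes the arrays' distributions of probe values equal, which would hide a change common to all genes. The values per gene were not made exactly equal, and their medians ran from 5.37 (GFP replicate 1) to 5.51 (TwistER replicate 3). Values ran from 0.866 to 13.7.

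Groups came from the labels, 3 arrays each. Of 33297 probe sets, 19460 had 1 gene symbol in the platform annotation, and the brightest per gene was kept without a filter on dim genes. All 54 members matched RefSeq (GRCh38.p14) by Entrez identifier, and 2 had a second probe set. One row that names SDC4 together with another gene was left out. Related genes can share probes.

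The test was limma 3.58.1 under R 4.3.3, with lmFit, eBayes (4.44 prior degrees of freedom) and no covariates. It was 2-sided, and p-values were adjusted by Benjamini-Hochberg over 18417 genes. The method was tested on simulated data. Noise there was drawn independently for each gene and array, so the simulation could not show what a deviating array does to the calls. The members and lists were chosen with earlier results of these data known. Named are the members past the threshold, those with the 10 highest means, those whose arrays of a group differ by 1 or more, and up to 4 genes of each pathway list with the largest differences. Other members are given by values or ranges. Python 3.11.15 with pandas 2.3.3 made the tables and matplotlib 3.10.9 the plots.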

Additional observations from a re-analysis of the deposited data

How the results depend on the processing

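The 7 members called were all called again after a second quantile normalization, cyclic loess, median centring, a filter at the 25th percentile of brightness, the mean of probe sets, a trended and robust prior, array weights and a replicate block. A second quantile normalization, cyclic loess and the brightness filter each called 9 members, 7 risen and 2 fallen, adding SDC3 in each, CHSY1 in the first pair and CSGALNACT2 (limma adjusted p = 0.0470) with the filter. Array weights also called SDC3, CHSY1 and CSGALNACT2. Array weights gave the most calls, with 3268 genes, 11 members risen, 4 fallen and 20 pathway genes outside the families, against 1627, 5, 2 and 10 as reported. With 1 array left out, 831 to 2773 genes were called, 2 to 8 members rose, 0 to 4 fell, and 6 to 17 pathway genes outside the families were called. The most calls came without GFP replicate 1 (2773 genes, 8 members risen, 4 fallen and 17 pathway genes). In limma 0 members fell without any other single array, and then 3 to 6 were lower at an unadjusted p under 0.05. Calls of NDST1, GPC6, SULF1, EXTL3 and HS6ST2 were lost without TwistER replicate 1, 2 or 3, and 2 members, SDC2 and GPC4, remained. B3GAT3 reversed to -0.063 with array weights, ran from -0.17 (without GFP replicate 1) to 0.68 with an array left out, and passed under none of these. With the replicate number as a replicate block, 1592 genes were called, 6 members rose, 3 fell and 10 pathway genes were called, with CSGALNACT2 (limma adjusted p = 0.0173) and CHST15 added. Same-numbered arrays deviated together at r = 0.139, 0.015 and 0.157, so the numbers were not taken as pairs. The cause of the changes with array weights was not tested. No other background correction was run, since the values were already summarised, and members in the lower quartile of brightness stay the least certain.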
